A study of Homo sapiens with 6 samples.

Results

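Human chromosome 19 carries long tandem arrays of genes for zinc finger proteins, and the genes described here are the 148 entries of the expression table whose symbol is ZNF followed by a number and whose position is on that chromosome, out of 11456 genes in all. They were measured by RNA sequencing of 6 libraries from HepG2-hCAR, a line of human liver carcinoma cells grown from a single HepG2 cell that had taken up a lentivirus with a full-length human CAR cDNA under doxycycline control and had been selected with puromycin. The 3 vehicle libraries and the 3 libraries from cells given 1 µg/ml of the antibiotic doxycycline, all collected at 72 h, therefore come from the same transduced clone. No library here held doxycycline without the inducible receptor, so the antibiotic and the receptor cannot be told apart. Whether the 3 libraries per condition were grown as independent cultures is not recorded in the labels, so the p-values may cover technical spread alone.

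Most proteins of this family carry a row of C2H2 zinc fingers, each a short loop held by 2 cysteines and 2 histidines around a zinc ion, that together read a DNA sequence. Many also carry a KRAB box at the amino end, which recruits the corepressor TRIM28 (KAP1) and through it the histone methyltransferase SETDB1, and such proteins are best known for silencing retrotransposons. The arrays arose by repeated tandem duplication, so neighbouring genes often resemble each other.

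Few members of the family passed the test for a change when the receptor was induced. NR1I3, the gene of CAR, went from 3.15, 3.01 and 3.56 FPKM with vehicle to 331, 317 and 316 FPKM with doxycycline, where FPKM is fragments per kilobase of transcript, scaled to the mapped fragments of the library. Of the 101 chromosome 19 ZNF genes with a mean of at least 1 FPKM, 5 rose and 0 fell (limma on log2(FPKM + 1), Benjamini-Hochberg adjusted p below 0.05 over all genes tested). That is 4.95% of the members tested, against 28.8% of all 10469 genes tested, with 15.2% higher and 13.6% lower. The genes that rose were ZNF486, ZNF44, ZNF134, ZNF823 and ZNF226, by 1.30-fold to 1.73-fold in mean FPKM. At an unadjusted p below 0.05, 13 members were higher and 4 were lower, together 16.8% of those tested, against 40.8% of all genes (21.4% higher and 19.4% lower).

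The coding sequences show what the members share. Of the 148 members, 147 had a full coding sequence under the same Ensembl identifier in GENCODE 29, and their translations held 1770 matches to the C2H2 pattern (cysteine, any 2 residues, cysteine, any 12 residues, histidine, any 3 residues, histidine). The number of matches per gene ran from 0 to 31, with a median of 12, and was highest in ZNF91, a repressor of SVA retrotransposons. Of all matches 97.6% were encoded by the last exon of their gene. A KRAB-like stretch (phenylalanine, any 2 residues, 2 residues that are each glutamate or glutamine, tryptophan, any 2 residues, leucine) was found in 106 of the 147, and a missing match says only that these letters were not found.

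To show how alike the repeats are, the first stretch that encodes a C2H2 match followed by the linker threonine, glycine, glutamate, lysine and proline is given for the genes that rose and have such a stretch, in lower case with the codons of the 2 cysteines and 2 histidines in capitals. The stretches are 78 bases long and are written 5′ to 3′ on the coding strand.
ZNF44: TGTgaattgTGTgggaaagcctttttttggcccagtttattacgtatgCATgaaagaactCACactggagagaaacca
ZNF823: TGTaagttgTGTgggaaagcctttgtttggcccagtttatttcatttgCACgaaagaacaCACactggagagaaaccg
ZNF486: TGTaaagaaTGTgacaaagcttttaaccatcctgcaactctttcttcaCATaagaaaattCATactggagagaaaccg
ZNF226: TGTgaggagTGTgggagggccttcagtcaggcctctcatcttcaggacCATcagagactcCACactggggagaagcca

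In GRCh38 these stretches lie at chr19:12273583-12273660 (minus strand, exon 5 of 5), chr19:11722877-11722954 (minus strand, exon 4 of 4), chr19:20197596-20197673 (plus strand, exon 4 of 4) and chr19:44176355-44176432 (plus strand, exon 7 of 7). ZNF44 and ZNF823, which stand in the same array, had 69 of 78 bases in common in this stretch. The other 5 pairs had 45 to 48 bases in common. Likeness of this kind can split reads between genes, so the share of each coding sequence that also occurs elsewhere was counted in windows of 50 bases, against all GENCODE 29 transcripts of other genes. The median member had 1.75% of its windows in another gene, 58 members had 0%, and 48 had more than 10%. Of the genes that rose, ZNF134 had 0%, ZNF44 0.361%, ZNF226 0.847%, ZNF823 2.02% and ZNF486 8.21%. Shares above 50% were found in ZNF20, ZNF564, ZNF8, ZNF724, ZNF587 and ZNF417, whose values are uncertain for that reason. The count took in every transcript listed under another gene identifier, also one that covers the same DNA. It therefore does not separate likeness between genes from overlapping gene entries, for example where the share is 100% (ZNF20 and ZNF564) or 97.3% (ZNF8).

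The promoters of the 5 genes that rose are printed because 3 of them resemble each other. Each is the 250 bases before the RefSeq start (GRCh38.p14), 5′ to 3′ on the strand of the gene, in lower case. Capitals mark, on either strand, the letters CCAAT, those of the Sp1 core GGGCGG, and a run of 12 bases, GGGAGGAAGCCC, including matches that overlap.
ZNF486: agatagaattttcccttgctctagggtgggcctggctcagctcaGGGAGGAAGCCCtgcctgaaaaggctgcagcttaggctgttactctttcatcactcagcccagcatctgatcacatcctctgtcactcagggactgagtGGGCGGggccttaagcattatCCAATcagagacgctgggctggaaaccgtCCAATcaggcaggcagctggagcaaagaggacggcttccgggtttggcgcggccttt
ZNF44: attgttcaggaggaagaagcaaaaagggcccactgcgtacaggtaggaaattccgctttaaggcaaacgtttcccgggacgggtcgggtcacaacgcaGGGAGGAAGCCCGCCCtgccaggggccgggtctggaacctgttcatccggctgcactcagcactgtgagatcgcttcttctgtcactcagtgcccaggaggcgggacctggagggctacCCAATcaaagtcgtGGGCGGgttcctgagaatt
ZNF823: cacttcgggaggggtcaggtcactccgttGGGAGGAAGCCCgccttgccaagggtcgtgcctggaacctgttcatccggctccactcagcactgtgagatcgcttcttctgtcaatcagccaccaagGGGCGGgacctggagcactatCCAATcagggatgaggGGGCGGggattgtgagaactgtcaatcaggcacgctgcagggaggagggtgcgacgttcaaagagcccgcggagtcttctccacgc
ZNF134: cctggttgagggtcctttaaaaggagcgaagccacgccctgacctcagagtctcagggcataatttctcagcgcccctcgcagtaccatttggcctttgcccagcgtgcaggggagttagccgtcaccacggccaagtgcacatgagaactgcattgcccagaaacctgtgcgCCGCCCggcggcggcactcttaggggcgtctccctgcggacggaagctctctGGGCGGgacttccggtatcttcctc
ZNF226: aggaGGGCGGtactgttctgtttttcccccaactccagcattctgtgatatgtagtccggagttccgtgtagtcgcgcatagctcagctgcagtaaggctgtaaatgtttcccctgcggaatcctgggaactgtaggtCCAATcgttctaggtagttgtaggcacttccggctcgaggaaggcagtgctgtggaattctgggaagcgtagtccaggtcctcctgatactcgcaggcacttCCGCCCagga

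The windows are chr19:20166964-20167213 (plus strand), chr19:12294884-12295133 (minus strand), chr19:11738947-11739196 (minus strand), chr19:57613992-57614241 (plus strand) and chr19:44164850-44165099 (plus strand). The run of 12 bases is the longest one that the promoters of ZNF486, ZNF44 and ZNF823 share, and it was searched for after these promoters had been read. RefSeq promoters were at hand for 133 members by symbol. The run was in 12 of the 133 (9.02%) and in 0.0952% of 27305 promoters of all genes. All 12 of these members were tested, with a median log2 fold change of 0.02. Among them were 3 called genes, the ones the run was taken from, so nothing can be read from that number. The 75 tested members without the run had a median of 0.04. The CCAAT letters were in 71 member promoters (53.4%, against 33.0% of all). The Sp1 core was in 90 (67.7%, against 42.3%). CAR binds with its partner RXR to direct repeats of a half-site with 4 bases between the copies. The repeat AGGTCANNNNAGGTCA was in 0 member promoters and in 0.0146% of all promoters, and the single half-site was in 12 member promoters (9.02%, against 12.1% of all). Among the promoters printed above, those of ZNF823 and ZNF134 each held 1 single half-site, left in lower case. Those of ZNF486, ZNF44 and ZNF226 held 0. These are matches of letters in a short window and nothing more.

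Levels were low throughout the family. Over the 148 members the mean FPKM of the 6 libraries had a median of 1.39, against 6.15 for all genes in the table, and ranged from 0.446 to 31.0. Just 4 members had a mean of at least 10 FPKM. All 148 had a value above 0 in every library. Together the members made up 0.152% to 0.159% of the summed FPKM of the vehicle libraries and 0.161% to 0.18% of the doxycycline libraries, with the highest share in doxycycline replicate 3. In that library ZNF114 alone gave 43.9 of the 370.3 FPKM of the members, against 13.7 and 14.2 FPKM in doxycycline replicates 1 and 2. GENCODE 29 lists 249 protein-coding ZNF genes of this naming on chromosome 19, of which 147 are among the members, and the others were not analysed here.

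ZNF486 had the largest fold change on the log2 scale among the tested members. It lies at chr19:20278037-20311299 on the plus strand of GRCh37 (ENSG00000256229), and its translation held 9 finger matches and a KRAB match. It was at 2.96, 3.43 and 3.47 FPKM with vehicle and at 5.88, 5.51 and 5.73 FPKM with doxycycline. Every doxycycline library stood above every vehicle library, with a wide space between the groups. The means were 3.29 ± 0.281 and 5.70 ± 0.185 FPKM (SD, n = 3, which holds for the other means too), a ratio of 1.73. The log2 fold change was 0.65 (SE 0.06, limma adjusted p = 8.39e-04), and it was called in 16 of 16 alternative fits that tested it.

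ZNF44, with 14 finger matches and a KRAB match, lies at chr19:12335501-12405702 on the minus strand (ENSG00000197857). It was at 2.05, 1.76 and 1.83 FPKM with vehicle and at 2.80, 2.95 and 3.01 FPKM with doxycycline, again without overlap. The ratio of means was 1.56 and the log2 fold change 0.45 (SE 0.06, limma adjusted p = 0.00272). ZNF134 lies far away near the end of the long arm, at chr19:58125601-58136091 on the plus strand (ENSG00000213762), and has 10 finger matches. Its 3 vehicle values, 1.41, 1.48 and 1.51 FPKM, and its 3 doxycycline values, 2.22, 2.35 and 2.33 FPKM, were each close together. The ratio of means was 1.57 and the log2 fold change 0.42 (SE 0.05, limma adjusted p = 0.00156). Both genes were called in 16 of 16 alternative fits.

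ZNF823 and ZNF226 passed the threshold narrowly. ZNF823 (chr19:11832080-11849824, minus strand, ENSG00000197933), which has 15 finger matches and a KRAB match, was at 4.82, 4.11 and 4.74 FPKM with vehicle and at 5.94, 6.58 and 5.25 FPKM with doxycycline. The groups did not overlap, but doxycycline replicate 3 came close to the vehicle values. Its ratio of means was 1.30 and its limma adjusted p = 0.0449, with a range of 0.0305 to 0.116 over the alternatives. ZNF226 (chr19:44669226-44682534, plus strand, ENSG00000167380), with 17 finger matches, was at 0.810, 0.888 and 1.15 FPKM with vehicle and at 1.28, 1.41 and 1.34 FPKM with doxycycline. Its ratio of means was 1.41 and its limma adjusted p = 0.0453, with a range of 0.0178 to 0.121. The ZNF823 call ended in 8 of 17 alternative fits and the ZNF226 call in 8 of 16. For both, these included leaving out vehicle replicate 1 (adjusted p = 0.073 and 0.116), vehicle replicate 2 (0.116 and 0.121), doxycycline replicate 1 (0.109 and 0.0883) or doxycycline replicate 2 (0.108 and 0.119). The ZNF823 call also ended without vehicle replicate 3 (0.0839), and the ZNF226 call without doxycycline replicate 3 (0.106).

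Just beyond the threshold stood ZNF211, ZNF417 and ZNF358, named after their values were seen. They were called in 2 of 16, 3 of 16 and 2 of 17 alternative fits. ZNF211 was at 1.37, 1.27 and 1.12 FPKM with vehicle and at 1.84, 1.52 and 1.61 FPKM with doxycycline (limma adjusted p = 0.0529). ZNF417, which with its close copy ZNF587 represses HERV-K elements, was at 1.33, 1.54 and 1.55 FPKM and at 1.70, 2.02 and 2.01 FPKM (limma adjusted p = 0.053). ZNF587 itself was at 4.16 ± 0.510 and 4.02 ± 0.444 FPKM, and 66.6% of the windows of each coding sequence occur in another gene. ZNF358 had the smallest p among the members that were lower, at 5.60, 6.0 and 5.11 FPKM with vehicle and 4.81, 4.74 and 4.64 FPKM with doxycycline (limma adjusted p = 0.059).

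**Figure D1:**
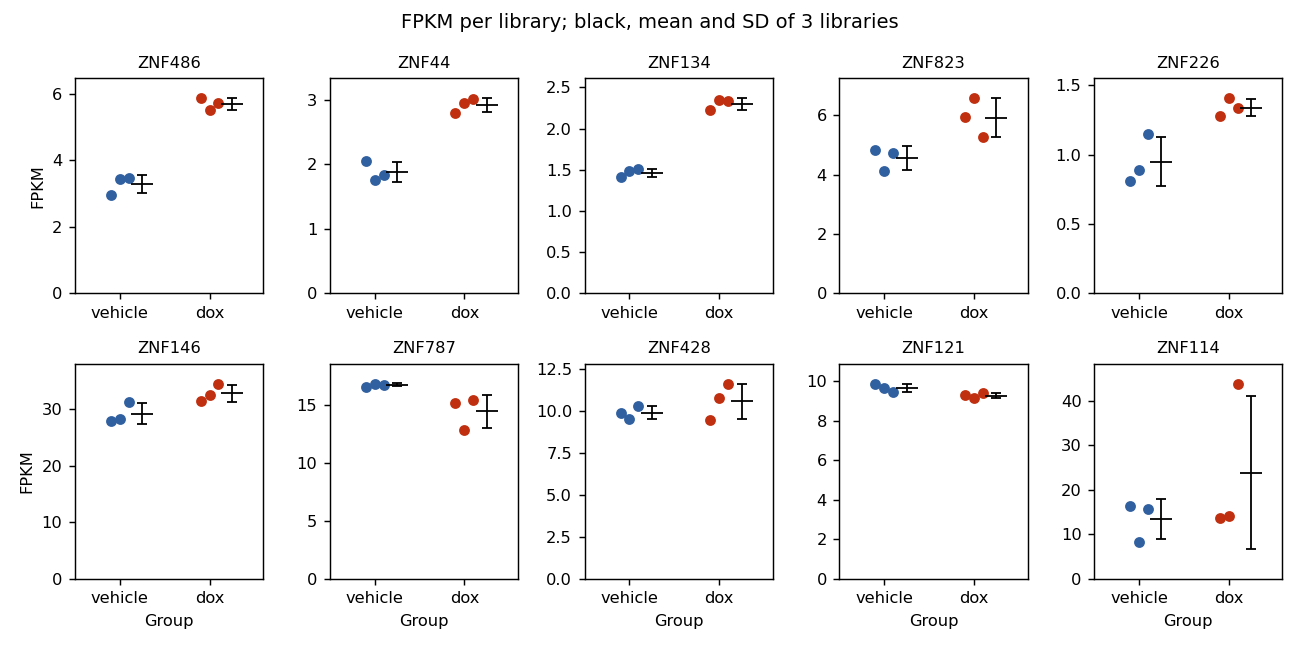
FPKM (vertical axes, each starting at 0) of 10 chromosome 19 ZNF genes in the 3 vehicle (blue) and 3 doxycycline (red, dox) libraries, with the mean and SD in black. The 5 genes of the upper row rose, by 1.30-fold to 1.73-fold; of the lower row, 5 of the 6 most strongly expressed members, none passed the test, and ZNF114 had 43.9 FPKM in 1 doxycycline library.

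The 6 most strongly expressed members did not pass the test. ZNF146, a short protein with 10 finger matches in 292 residues, was at 27.9, 28.3 and 31.3 FPKM with vehicle and at 31.5, 32.4 and 34.5 FPKM with doxycycline (limma adjusted p = 0.0747). Its groups did not overlap, though the highest vehicle library nearly reached the lowest doxycycline library. ZNF787 was at 16.5, 16.8 and 16.7 FPKM and at 15.1, 12.8 and 15.4 FPKM, a log2 fold change of -0.20 (95% interval -0.37 to -0.03, limma adjusted p = 0.0856). ZNF428 had 9.91 ± 0.379 and 10.6 ± 1.05 FPKM, and ZNF121 9.66 ± 0.209 and 9.26 ± 0.120 FPKM. For ZNF121 the 95% interval of the log2 fold change ran from -0.14 to 0.03. ZNF581 was at 7.31, 7.38 and 7.28 FPKM with vehicle and at 8.28, 4.90 and 7.93 FPKM with doxycycline, so that the doxycycline libraries lay on both sides of the vehicle values. ZNF580, which overlaps ZNF581 on the same strand, was also lowest in doxycycline replicate 2, at 1.91 FPKM against 3.99 and 4.05.

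Several members had 1 library far from the others of its group. ZNF114 was at 16.4, 8.26 and 15.8 FPKM with vehicle and at 13.7, 14.2 and 43.9 FPKM with doxycycline, and its ratio of means, 1.78, rested on doxycycline replicate 3. Its log2 fold change of 0.63 had an SE of 0.49 (limma adjusted p = 0.385). ZNF473, the ZFP100 protein of histone mRNA processing, was at 3.02, 1.20 and 3.06 FPKM with vehicle and 2.87 ± 0.185 FPKM with doxycycline. ZNF766 was likewise low in vehicle replicate 2, at 0.473 FPKM against 2.02 and 2.08. ZNF841 was at 0.572, 0.616 and 2.00 FPKM with vehicle and at 1.98, 2.67 and 0.591 FPKM with doxycycline, low and high in both groups. Of the tested members, 11 (10.9%) had values within a group that differed by at least 2-fold, against 5.39% of all genes tested and 8.12% of all genes with a mean of 1 to below 5 FPKM. Of the 101 tested members, 7 were at least 1.5-fold higher in mean FPKM with doxycycline and 0 were at least 1.5-fold lower. Among all genes tested, 10.7% differed at least 1.5-fold in either direction. Of the 7 members, 3 were called and the other 4, ZNF260, ZNF227, ZNF114 and ZNF841, each had a 2-fold spread within a group. These genes were named after their values were seen, and the part that read assignment between similar genes has in this spread was not tested.

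**Figure D2:**
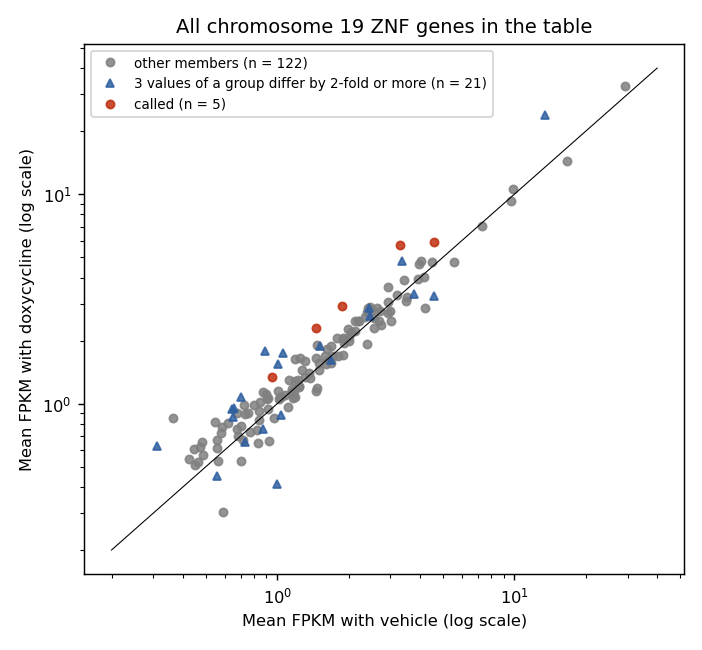
Mean FPKM with vehicle (horizontal) against mean FPKM with doxycycline (vertical) of all 148 members, both on log scales, with the line of equal values. Red points are the 5 called members, blue triangles the 21 members with values within a group that differ by at least 2-fold, and grey points the rest; most points lie close to the line.

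The members were then followed along the chromosome. A new cluster was begun wherever more than 0.5 Mb separated a member from those before it, which gave 19 clusters in GRCh37, 5 of them single genes and 10 with at least 3 tested members. The genes that rose were spread over 4 clusters. On the short arm, at chr19:11594242-12750912, a cluster of 17 members held ZNF823 and ZNF44, and its 14 tested members had a median log2 fold change of 0.05 (range -0.04 to 0.45). The cluster that holds ZNF486, chr19:19779605-22034927, had 14 members, and its 11 tested members had a median of 0.02. ZNF486 stood at 0.65 there, and the next highest of its neighbours, ZNF101, at 0.18.

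On the long arm, the cluster at chr19:44100544-45004576 held ZNF226 among 11 members. All 9 of its tested members had a log2 fold change above 0, against 65 of all 101 tested members and 5418 of all 10469 genes tested. They ran from 0.02 to 0.37 with a median of 0.11, although only ZNF226 was called, against 28.8% of all genes tested. The 0.37 was that of ZNF227, which varied at least 2-fold within the vehicle group (0.532, 1.16 and 1.33 FPKM). The largest clusters were those at chr19:52392477-54083523, with 26 members, and at chr19:57702868-58992597, with 29 members. The first had 0 called among 16 tested members, against 28.8% of all genes tested, with a median of 0.07. The second had ZNF134 as its 1 called gene among 16 tested members, with a median of -0.02. At chr19:55987699-57137849, the cluster of ZNF787, ZNF580 and ZNF581, the 8 tested members had a median of -0.08. Of these 8, 5 were below 0, against 36 of all 101 tested members and 5051 of all genes tested.

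Across the 80 pairs of tested members that were next to each other within 0.5 Mb, Spearman's rho between the log2 fold changes was 0.33. For 595 such pairs of the other chromosome 19 genes it was 0.10. Neighbours share the same libraries and, in this family, sequence, so this is a description only.

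**Figure D3:**
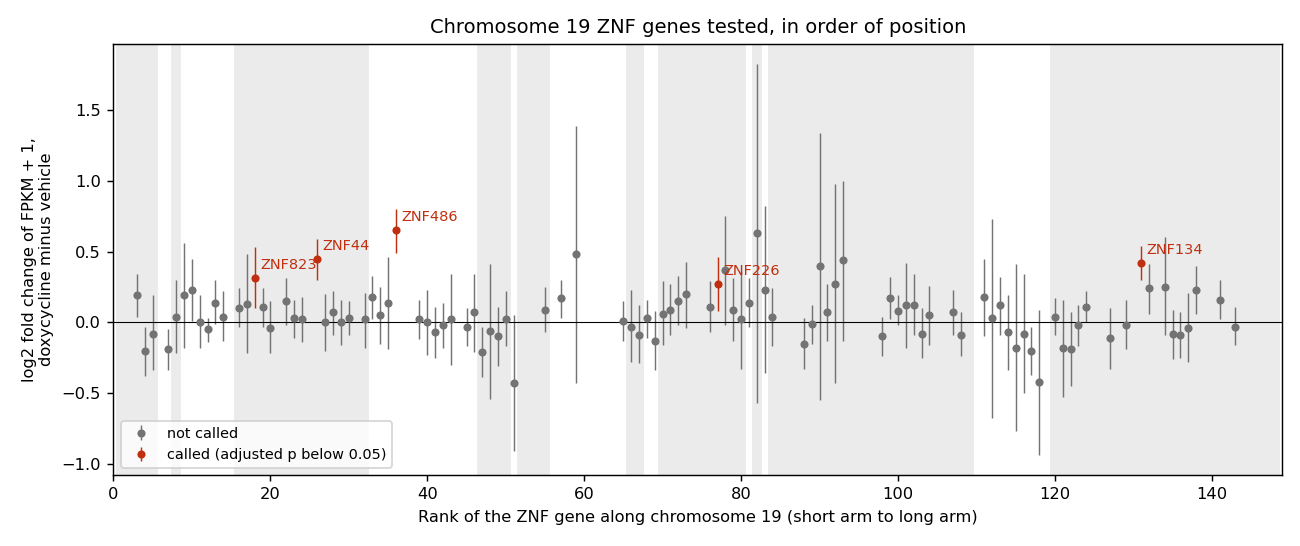
Log2 fold change of FPKM + 1, doxycycline minus vehicle (vertical axis, bars are 95% intervals from limma), of the 101 tested members against their rank along chromosome 19; grey and white bands alternate between the 19 clusters. The 5 called members, in red, stand above 0 in 4 different clusters, and most other intervals include 0.

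The distribution of the fold changes was narrow. The median log2 fold change of the tested members was 0.04 (quartiles -0.04 and 0.15), beside 0.01 for all genes tested (quartiles -0.12 and 0.14). Of the 101, 65 were above 0 and 36 below (5418 and 5051 of all genes tested), over a range from -0.43 to 0.65. In 81 of the 101 the whole 95% interval of the log2 fold change lay between -0.5 and 0.5, and in 98 between -1 and 1. The pseudocount of 1 FPKM compresses changes of such weakly expressed genes, and with a pseudocount of 0.1 the same intervals held 61 and 91 members. Values of the groups did not overlap for 19 members that were higher (18.8%, against 24.8% of all genes tested) and for 5 that were lower (4.95%, against 22.3%). Together these were 23.8% of the members and 47.1% of all. The 5 lower ones, named after their values were seen, were ZNF57, ZNF358, ZNF121, ZNF724 and ZNF787.

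Calls were rarer among weakly expressed genes, so the members were set beside genes with a mean of 1 to below 5 FPKM. Within that range the members were still lower, with a median of 1.88 FPKM. The median was 2.66 FPKM for all genes there and 2.37 FPKM for ZNF genes on other chromosomes. The range therefore matches the levels only in part. Among all genes with a mean of 1 to below 5 FPKM, 22.6% were called, 11.8% higher and 10.8% lower, whereas 4 of the 93 members in that range were called (4.30%). Groups did not overlap for 17 of the 93 that were higher (18.3%, against 22.9% of all genes in that range) and for 2 that were lower (2.15%, against 18.7%), together 20.4% against 41.6%. The members' median SE was 0.08 in that range, against 0.07 for all genes there, and their median absolute log2 fold change was 0.09 against 0.14. ZNF genes on the other chromosomes had 24 of 154 tested members called (15.6%), 13 higher and 11 lower, and in the same range of levels 8 of 109 (7.34%). The other genes of chromosome 19 had 158 of 612 called (25.8%), 71 higher and 87 lower. In the same range of levels they had 55 of 244 called (22.5%), 29 higher and 26 lower, with a median of 2.68 FPKM. No test of a difference between these lists was made.

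**Figure D4:**
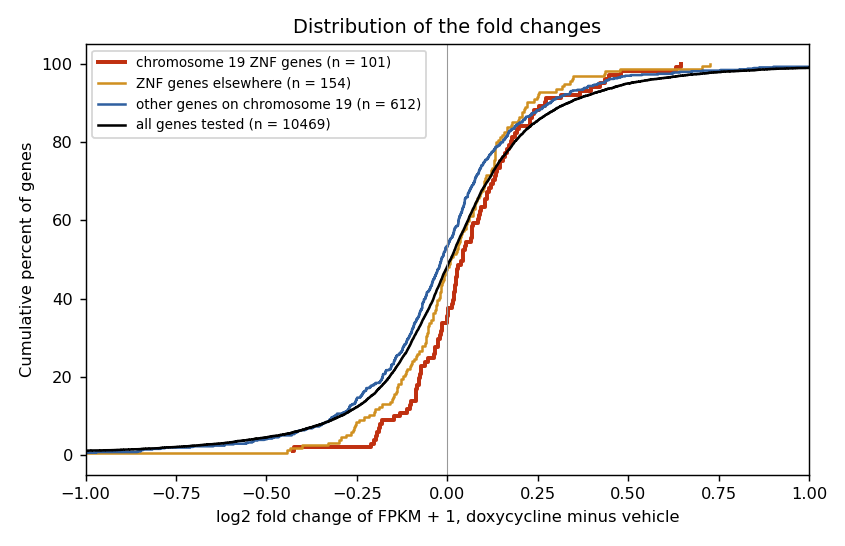
Cumulative percent of genes (vertical axis) against the log2 fold change of FPKM + 1, doxycycline minus vehicle (horizontal axis, drawn from -1 to 1), for the 101 tested chromosome 19 ZNF genes, 154 ZNF genes elsewhere, 612 other genes of chromosome 19 and all 10469 genes tested. The curve of the members rises most steeply, with quartiles at -0.04 and 0.15.

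The protein features were then set beside the fold changes. With a KRAB match, 3 of 68 tested members were called (4.41%, against 28.8% of all genes tested) and the median log2 fold change was 0.03, and without one 2 of 32 were called (6.25%) and the median was 0.08. Across 100 members, Spearman's rho of the log2 fold change was 0.06 with the number of finger matches and -0.17 with the share of windows found in other genes, both as descriptions across genes measured in the same libraries. By strand, 3 of 53 tested members on the plus strand (5.66%) and 2 of 48 on the minus strand (4.17%) were called, against the same 28.8%.

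The 47 members with a mean below 1 FPKM, from 0.446 to 0.985, were not tested. The table lists no member whose larger group mean is below 0.511 FPKM, and 9 members had a vehicle mean below 0.5, so a member this low in 1 group is listed only because it was higher in the other. Groups did not overlap for 10 of the 47 that were higher (21.3%, against 22.1% of all 987 genes below 1 FPKM) and for 2 that were lower (4.26%, against 21.9%). ZNF613, ZNF628, ZNF846 and ZNF83, all among the 10, had a vehicle mean below 0.5 FPKM and so are listed only because of their doxycycline values. With a minimum mean of 0.5 FPKM, 8 of 143 members were called (5.59%, against 28.1% of all genes), and without a minimum 9 of 148 (6.08%, against 28.5%). ZNF613 was at 0.256, 0.451 and 0.379 FPKM with vehicle and at 0.752, 1.04 and 0.773 FPKM with doxycycline, about 2.36-fold apart in the means. ZNF628 was at 0.315, 0.398 and 0.218 FPKM and at 0.400, 0.841 and 0.647 FPKM. ZNF551 jumped in both groups, with 0.122, 1.43 and 1.46 FPKM with vehicle and 0.162, 0.107 and 0.967 FPKM with doxycycline. ZNF565, named after its values were seen, went the other way, at 0.530, 0.659 and 0.575 FPKM with vehicle and at 0.278, 0.353 and 0.282 FPKM with doxycycline. Its doxycycline mean of 0.304 FPKM lies below 0.5, so its listing rests on the vehicle values. It overlaps the strongly expressed ZNF146 on the opposite strand, and whether the authors counted reads by strand is not given in the sources used here.

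Members with known targets were looked up by role, also after their values were seen. ZNF91 was at 1.74, 1.38 and 1.94 FPKM with vehicle and at 0.955, 2.29 and 1.62 FPKM with doxycycline, with the highest and the lowest value in the same group. ZNF274, which binds the ends of ZNF genes themselves and recruits SETDB1 there, was at 2.13 ± 0.177 and 2.49 ± 0.0317 FPKM (limma adjusted p = 0.092). ZNF808, whose loss lets liver genes come on in the developing human pancreas, was at 0.938, 0.778 and 0.778 FPKM with vehicle and at 0.677, 0.805 and 0.476 FPKM with doxycycline, and was not tested.

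A list of 32 genes, called the corepressor genes here, was also followed. It holds TRIM28 and SETDB1, through which KRAB zinc finger proteins work, and a wider set of genes, among them L3MBTL2. TRIM28, the scaffold, was at 43.7 ± 2.28 and 43.8 ± 0.714 FPKM, and its log2 fold change of 0.01 turned to -0.02 with quantile normalization and lay at 0.00 with median-ratio scaling. SETDB1, the methyltransferase, was at 4.51 ± 0.230 and 4.06 ± 0.247 FPKM (limma adjusted p = 0.169). Of the 32, all of them tested, 3 rose and 2 fell (15.6%, against 28.8% of all genes tested), with a median log2 fold change of 0.00. MPHOSPH8, a chromodomain subunit of the HUSH silencing complex, rose from 13.9 ± 0.707 to 17.9 ± 1.25 FPKM (limma adjusted p = 0.00924), a call that held in 17 of 17 alternatives. L3MBTL2, a Polycomb-type chromatin protein, rose from 3.09 ± 0.165 to 3.85 ± 0.119 FPKM, and CHD4, the NuRD remodeler, from 39.4 ± 1.30 to 43.9 ± 1.15 FPKM. The heterochromatin protein CBX5 (HP1 alpha) fell from 14.5 ± 0.442 to 12.9 ± 0.356 FPKM, and the deacetylase HDAC1 from 41.2 ± 0.556 to 36.9 ± 1.51 FPKM. Each of these last 4 calls ended when single libraries were left out. The list had 2 called genes without vehicle replicate 1, 2 or 3 or doxycycline replicate 1, and 3 without doxycycline replicate 2. With single libraries left out 22.1% to 22.7% of all genes were called.

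Of 6 genes on chromosome 19 that the list of other zinc finger names took in, 4 were tested and 1 was called. That gene was ZIM2, which shares its first exons with PEG3 and fell from 3.92 ± 0.278 to 2.15 ± 0.305 FPKM (limma adjusted p = 0.00293). ZFP36 is on this list by name only, since it binds RNA through fingers of another type.

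The label of the cells was checked against markers. All 12 hepatocyte and hepatoma genes were in the table, and their summed FPKM was 1977 to 2114 with vehicle and 829 to 840 with doxycycline. Of 11 genes of leukocytes, endothelium and fibroblasts 4 were in the table, ACTA2, CD14, CD68 and PDGFRB, with sums of 27.5 to 28.6 FPKM and 24.2 to 25.7 FPKM, and the other 7 were not analysed here. The part of the lower liver marker sum in the values of the ZNF genes was not tested.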

How the data were processed

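The deposited table gives 1 FPKM value per gene and library, computed by the authors from stranded poly(A) libraries; the submitters' processing notes name FastQC, cutadapt, HISAT2, StringTie and GRCh37, and the annotation release is not given in the sources used here. FPKM holds no read counts, so the depth is unknown. Of 11461 entries, the one with the highest mean represented each repeated symbol. Genes with a mean of at least 1 FPKM entered a linear model on log2(FPKM + 1), fitted by limma 3.58.1 (R 4.3.3), with group as the only term, variance trend on, two-sided, Benjamini-Hochberg over 10469 genes. Fold changes on this scale understate those of low genes. Intervals are at 95%. The fit was tested on simulated data, where 67.5% of 80 genes with a log2 change of 0.5 up or down were recovered. At a change of 1 it was 83.8% of 80, and 7 of all 166 calls (4.22%) were false. The simulation changed far fewer genes than were called here and shuffled the spread across genes. It therefore does not give the power for the members. Coding and transcript sequences came from GENCODE 29, promoters from RefSeq (GRCh38.p14); table coordinates stayed in GRCh37. Named by rule were the called members, the 6 with the highest mean, the 3 not tested members that differed most on the log2 scale, and of the corepressors TRIM28, SETDB1 and up to 6 called genes. Members, lists and rules were chosen with earlier results of these data known. The background of genes from 1 to below 5 FPKM, the comparison without members that vary at least 2-fold within a group, and the promoter letters were chosen after seeing the data. Alternatives were other pseudocounts, filters, scalings and moderation, a replicate block, leaving out overlapping entries or single libraries, a stricter threshold and a wider cluster gap.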

Additional observations from a re-analysis of the deposited data

How the results depend on the processing

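ZNF486, ZNF44 and ZNF134 were called in 16 of 16 alternative fits that tested them. Of the members called higher, 5 in all, the number was 8 with a minimum mean of 0.5 FPKM or no filter, 1 with a minimum of 5 FPKM (8 members tested), 3 with quantile normalization and 3 at an adjusted p below 0.01. It was 7 without a variance trend (6.93%, against 28.2% of all genes) and 7 without overlapping entries (7.61%, against 29.8%). ZNF211 and ZNF417 were gained in both. In either direction, 8 members were called with a minimum of 0.5 FPKM and 9 with no filter, against 28.1% and 28.5% of all genes. With a minimum of 5 FPKM 1 was called, against 34.1% of all genes, and with the stricter threshold 3. Of members called lower, 0 in all, 1 was called without a filter (ZNF565) and 1 with quantile normalization (ZNF358). ZNF613, among the 8 and the 9, is listed only because of its doxycycline values, and ZNF565 only because of its vehicle values. Leaving out single libraries gave 3 to 6 members called (2.97% to 5.94%, against 22.1% to 22.7% of all genes), 3 to 5 higher and 0 to 1 lower. The number called was 3 without vehicle replicate 2, and 3 were higher also without vehicle replicate 1 or doxycycline replicate 2. The median log2 fold change of the members, 0.04, was 0.02 with a minimum of 5 FPKM, 0.06 without a filter and 0.07 with a pseudocount of 0.1. Among the 90 tested members without a 2-fold spread within a group, 5 were called (5.56%, against 28.8% of all genes tested) and the median was 0.03.

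Same-numbered libraries of the groups showed little common deviation across genes (r = 0.015, -0.0321 and 0.0917). For libraries of unlike number r ran from -0.0982 to 0.0836. The labels do not say whether the numbers pair the libraries, and correlations this small cannot settle it. With the replicate number as a block 22.4% of all genes and 4 members were called, with ZNF146 gained and ZNF823 and ZNF226 lost, and 3 corepressor genes were called, 1 of them lower: MPHOSPH8 and CBX5 kept their calls, L3MBTL2 (adjusted p = 0.0656), HDAC1 (0.0557) and CHD4 (0.054) lost theirs, and DNMT3B was gained (0.0419). Without single libraries 2 to 4 corepressor genes were called, 1 to 3 higher and 0 to 3 lower, where 22.1% to 22.7% of all genes were called. Changes of sign were followed only for the tested genes named by rule, and no gene with such a change was called. ZNF581 changed sign without doxycycline replicate 2 (0.13, in a range from -0.20 over single libraries left out). TRIM28 changed sign with quantile normalization (-0.02), with median-ratio scaling (0.00), and without doxycycline replicate 1 (0.00) or vehicle replicate 3 (-0.04, in a range up to 0.03). Other filters and left-out libraries change how many genes or libraries enter, and the cause of the other moves was not tested. The unknown depth limits every value below about 1 FPKM.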
